A study of Mus musculus with 9 samples.

Results

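Expression of 10 genes that mark the thalamus was followed by RNA sequencing of the mouse hippocampus. The genes were Tcf7l2, Lef1, Zic1, Slc17a6, Ntng1, Prkcd, Rgs16, Ramp3, Synpo2 and Plekhg1. They were picked out by gene name, and all 10 were found among the 54532 genes of each deposited table. The list was chosen with earlier results of these data known. Counts set beside the share of all genes therefore describe the list and do not test it. Levels are in FPKM, a fragment count divided by the length of the gene and the depth of the library, so that levels of different genes can be set side by side.

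The thalamus lies directly beneath the hippocampus and relays sensory and motor signals to the cortex, mostly through excitatory neurons that load glutamate into vesicles with the transporter encoded by Slc17a6. Hippocampal excitatory neurons mainly use the related transporter encoded by Slc17a7. The transcription factors encoded by Tcf7l2 and Lef1 bind β-catenin and carry the Wnt signal to DNA, and Tcf7l2 helps to set up and maintain the identity of thalamic neurons.

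The study asked how excess homocysteine acts on the brain, and it sequenced total hippocampal RNA of 9 samples in 3 groups of 3. Con mice were C57BL/6 animals labelled WT on a standard diet. HMD mice were fed for 8 weeks on a diet rich in methionine, from which the body makes homocysteine. Bet+HMD mice ate the high-methionine diet and were given betaine at 2.5% (w/v) in drinking water for 2 weeks, betaine being a methyl donor that returns homocysteine to methionine. The labels give wild-type male mice aged 6 to 8 weeks at purchase and kept in pairs, whereas the study's methods describe female mice. The strain labels of the Bet+HMD samples read C57BL/6, C57BL/7 and C57BL/8. Whether the methionine diet went on during betaine treatment is not clear from the sources. No label says that the samples came from separate animals, so the P values measure only the spread between these samples, which may be technical.

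The values came in an earlier table of the 6 Con and HMD samples and a later table of all 9. Reads assigned to genes numbered 16449388 to 18566712 per library in the former and 16031464 to 18291952 in the latter. Bet+HMD libraries had reads for 25315 to 25663 genes, and the other libraries in that table for 20816 to 23272. The labelled tissue was checked with 12 markers of hippocampal neurons, which had reads in every library. Their summed level was 306 to 334 FPKM in Con, 251 to 301 in HMD and, in the later table, 252 to 261 in Bet+HMD. HMD replicate 1 had the lowest of these sums in the earlier table, and it also stood apart for the thalamus-enriched genes. The comparisons with HMD are therefore also given without it.

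All 10 genes were detected in every library, with at least 42 reads. Group levels of Con and HMD are from the earlier table and those of Bet+HMD from the later one, which were normalized separately. In Con, Zic1 had the highest mean at 5.55 ± 2.36 FPKM (SD, n = 3), followed by Ntng1 at 4.66 ± 0.248, Prkcd at 4.21 ± 1.14 and Slc17a6 at 3.98 ± 1.16. Plekhg1 at 3.13 ± 0.186, Ramp3 at 2.83 ± 0.441 and Rgs16 at 2.13 ± 0.711 came next, and Tcf7l2 at 0.861 ± 0.297, Lef1 at 0.625 ± 0.261 and Synpo2 at 0.514 ± 0.00685 were lowest. Neighbours in this order overlapped in their ranges over samples, except that every Rgs16 value lay above every Tcf7l2 value.

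The order was different in the other groups. In HMD it ran from Zic1 at 16.1 ± 4.31 FPKM through Slc17a6 at 14.7 ± 10.5 and Prkcd at 12.6 ± 6.92 down to Synpo2 at 2.14 ± 1.41 and Lef1 at 0.848 ± 0.356, with only the last pair of neighbours not overlapping. In Bet+HMD, Slc17a6 was highest at 8.74 ± 0.308 FPKM, above Zic1 at 7.29 ± 0.417 and Prkcd at 5.53 ± 0.0748, and these 3 genes did not overlap. The spread between samples also differed by group. The coefficient of variation was 26.7% for Zic1 to 103% for Tcf7l2 in HMD, against 1.33% for Synpo2 to 42.4% for Zic1 in Con and 1.35% for Prkcd to 23.8% for Rgs16 in Bet+HMD.

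**Figure D1:**
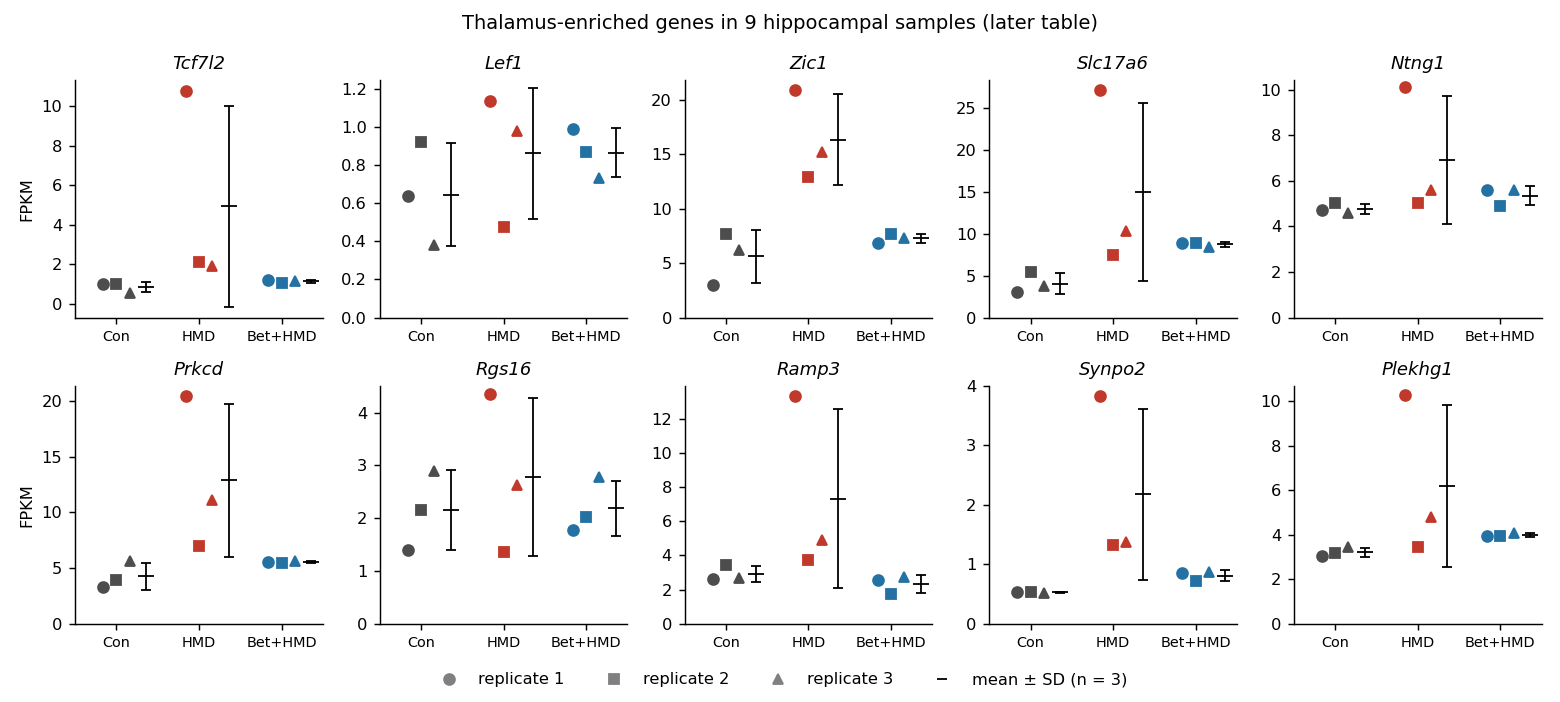
Level of each gene in FPKM (vertical axis, each panel on its own scale) in the 9 samples of the later table by group, with each sample as a symbol by replicate number and the black bar giving the mean ± SD of 3 samples. HMD replicate 1 is the highest sample in all 10 panels, and the lower error bar of Tcf7l2 in HMD passes 0 because its SD of 5.08 exceeds its mean of 4.93 FPKM.

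The first comparison asked what the high-methionine diet changed, with HMD set against Con in the earlier table. Levels of 7 of the 10 genes were higher in every HMD sample than in every Con sample, which held for 4.71% of the 12989 genes tested. None of the 9 genes tested passed limma at an adjusted P under 0.05, and neither did any other gene (0%). All 9 had a higher mean in HMD, against 49% of the genes tested. In bulk tissue, a change in the share of cells of a type and a change in RNA per cell cannot be told apart.

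Among the transcription factors, Tcf7l2 was at 1.00, 1.06 and 0.520 FPKM in Con replicates 1 to 3 and at 10.7, 2.06 and 1.89 FPKM in HMD replicates 1 to 3. No HMD sample was as low as any Con sample, and HMD replicate 1 held 1736 reads against 80 to 164 in Con. The difference in log2(FPKM + 1) was 1.35 (SE 0.50, adjusted P = 0.98). Its relative Lef1 was at 0.615, 0.891 and 0.368 FPKM in Con and at 1.14, 0.452 and 0.954 in HMD. The groups overlapped, and Lef1 lay under the filter of a mean of 1 FPKM, so it was not tested.

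Zic1, a zinc finger factor of dorsal and midline brain structures, was at 2.97, 7.59 and 6.08 FPKM in Con and at 20.9, 12.5 and 15.0 in HMD. The lowest HMD sample exceeded the highest Con sample. The difference was 1.43 (SE 0.30, adjusted P = 0.726), and its unadjusted P of 0.00166 was the smallest of the 9. Zic1 overlaps Zic4 on the opposite strand, and whether the counting used strand is not stated, but Zic4 never held more than 271 reads while Zic1 held 316 to 2210 in this table.

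For the excitatory neuron genes, Slc17a6 was at 3.00, 5.26 and 3.68 FPKM in Con and at 26.7, 7.25 and 10.1 in HMD. Every HMD sample was above Con, with a difference of 1.48 (SE 0.42, adjusted P = 0.906). Ntng1, which encodes netrin-G1 on thalamocortical axons, was at 4.57, 4.94 and 4.46 FPKM in Con and at 9.98, 4.89 and 5.42 in HMD. Only HMD replicates 1 and 3 lay above the Con range, and the difference was 0.40 (SE 0.23, adjusted P = 0.98).

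Signalling genes differed among themselves. Prkcd, the δ isoform of protein kinase C found in sensory relay nuclei, was at 3.25, 3.90 and 5.48 FPKM in Con and at 20.2, 6.71 and 10.9 in HMD, with no overlap and a difference of 1.28 (SE 0.35, adjusted P = 0.906). Ramp3, which pairs with the calcitonin receptor-like receptor to form an adrenomedullin receptor, was at 2.52, 3.33 and 2.63 FPKM in Con and at 13.1, 3.55 and 4.81 in HMD. The gap between its groups was narrow, and the difference was 0.92 (SE 0.38, adjusted P = 0.98). Rgs16, a regulator that speeds GTP hydrolysis by G proteins, was at 1.40, 2.17 and 2.82 FPKM in Con and at 4.42, 1.30 and 2.55 in HMD. Its groups overlapped, with HMD replicate 2 below every Con sample, and the difference was 0.20 (SE 0.31, adjusted P = 0.98).

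Of the genes for actin regulators, Synpo2, which encodes an actin-binding protein, was at 0.522, 0.509 and 0.510 FPKM in Con and at 3.77, 1.32 and 1.34 in HMD. All HMD samples were above all Con samples, with a difference of 0.97 (SE 0.28, adjusted P = 0.906). Plekhg1, which encodes a guanine nucleotide exchange factor, was at 2.98, 3.08 and 3.34 FPKM in Con and at 10.1, 3.35 and 4.79 in HMD. HMD replicate 2 lay barely above the highest Con sample, and the difference was 0.66 (SE 0.31, adjusted P = 0.98). Synpo2 and Tcf7l2 were under 1 FPKM in Con and passed the filter through their HMD values, so the counts of tested genes are not independent of their direction.

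An unadjusted P under 0.05 was reached by 6 of the 9 genes, against 4.56% of all genes tested (592), and by 7 of the 9 with limma voom on recovered reads, which also called no gene. The median difference of the 9 genes was 0.97, beside -0.0038 over all genes tested. This median is the value of Synpo2, which passed the filter through its HMD values, so it is not independent of direction. With no filter the median of all 10 genes was 0.94, beside -0.00063 over all genes. Slc17a6, Zic1 and Tcf7l2 ranked 4, 6 and 10 among the 12989 differences from the top, and Rgs16 ranked 1315.

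HMD replicate 1 was the highest library for all 10 genes in both tables. Among all genes tested, 12.7% were highest in that library in the earlier table. Only 11 of the 12989 genes were highest there by at least 1 on the log2(FPKM + 1) scale, and 4 of them were Tcf7l2, Slc17a6, Ramp3 and Synpo2. The others included Shox2 of the thalamus, Tac2 and Gpr151 of the medial habenula and Syt9, named here after their values were seen. Relative to the Con mean, the median of the 10 genes was 4.21-fold in HMD replicate 1, 1.42-fold in HMD replicate 2 and 1.94-fold in HMD replicate 3. The range in HMD replicate 1 ran from 1.82-fold for Lef1 to 12.4-fold for Tcf7l2.

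**Figure D2:**
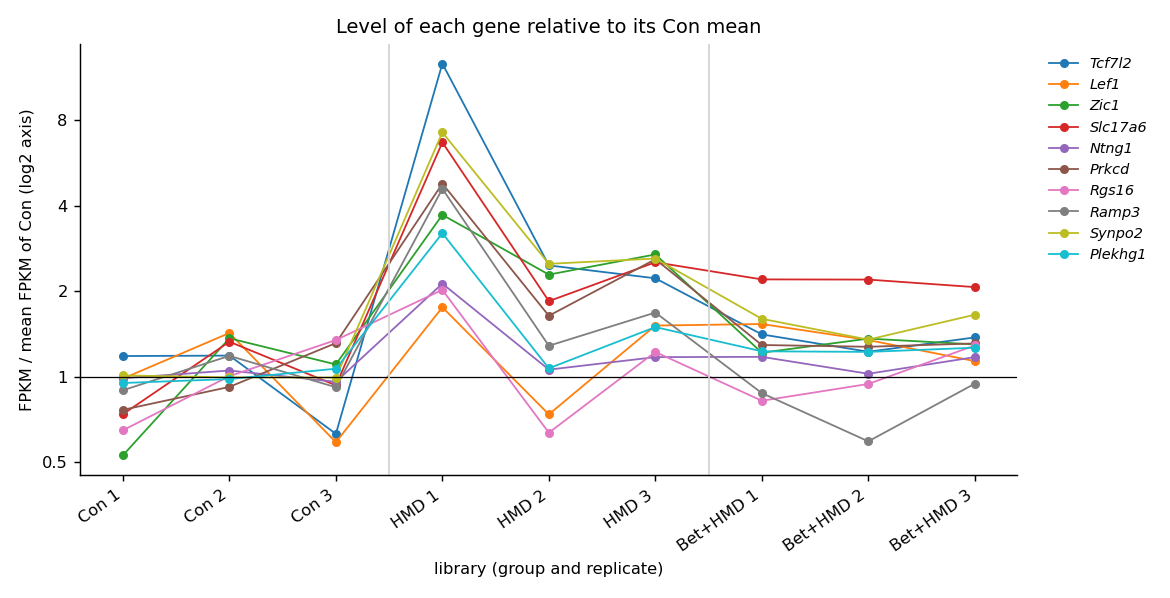
FPKM of each gene divided by its mean in Con (vertical axis, log2 scale) in the 9 libraries of the later table, with a line per gene and the horizontal line at the Con mean. The lines rise together at HMD replicate 1, with a median of 4.16-fold. In the 3 Bet+HMD libraries the medians are 1.26-fold, 1.25-fold and 1.29-fold, with single genes from 0.592-fold for Ramp3 to 2.20-fold for Slc17a6.

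Without HMD replicate 1, 8 of the 10 genes passed the filter, and 7 of the 8 were still higher in HMD, with a median difference of 0.56. Tcf7l2 again passed the filter through its HMD values, so this count and median are not independent of direction. The difference was 1.24 (SE 0.32) for Zic1, 0.97 (SE 0.23) for Slc17a6, 0.90 (SE 0.25) for Prkcd and 0.69 (SE 0.20) for Tcf7l2. It shrank to 0.43 (SE 0.17) for Ramp3, 0.28 (SE 0.16) for Plekhg1 and 0.12 (SE 0.13) for Ntng1, and it turned to -0.11 (SE 0.27) for Rgs16. No gene was called in this fit, while 5 of the 8 had an unadjusted P under 0.05. Over all 12996 genes tested in it, 49.6% were higher in HMD and 2.89% had an unadjusted P under 0.05. The mean of HMD replicates 2 and 3 was 2.59-fold the Con mean for Synpo2, 2.48-fold for Zic1, 2.29-fold for Tcf7l2, 2.18-fold for Slc17a6 and 2.09-fold for Prkcd, but 0.904-fold for Rgs16. Because HMD replicate 1 was the highest library for each gene, the count of 7 genes without overlap did not depend on it.

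The promoters of 2 genes are shown because Tcf7l2 and Synpo2 had the largest ratios of the HMD to the Con mean, at 5.67 and 4.17, and because their RefSeq start is the start given in the deposited tables. Each sequence holds the 250 bases before the start, from RefSeq on GRCm38.p6, and capitals mark the core CTTTG, or CAAAG on the other strand, of the element that TCF and LEF factors bind.
Tcf7l2 (chr19:55741560-55741809, plus strand): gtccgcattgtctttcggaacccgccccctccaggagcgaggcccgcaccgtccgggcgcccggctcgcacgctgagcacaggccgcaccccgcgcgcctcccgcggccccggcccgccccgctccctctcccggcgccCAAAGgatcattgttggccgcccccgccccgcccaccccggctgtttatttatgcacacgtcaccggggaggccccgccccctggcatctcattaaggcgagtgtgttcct
Synpo2 (chr3:123236150-123236399, minus strand): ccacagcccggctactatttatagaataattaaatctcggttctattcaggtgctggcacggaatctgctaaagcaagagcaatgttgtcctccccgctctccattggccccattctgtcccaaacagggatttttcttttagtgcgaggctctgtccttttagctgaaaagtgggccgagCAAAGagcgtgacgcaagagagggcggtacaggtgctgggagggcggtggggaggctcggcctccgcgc
The core stood 111 bases before the start in Tcf7l2 and 69 bases before it in Synpo2. Counted on both strands, it was present in 11 of the 16 windows listed for the 10 genes (6 genes), against 48.6% of 32851 RefSeq windows of the same length. Some genes have several windows, and some of those of Lef1 overlap and share a core, so the windows are not independent. The longer forms CTTTGAT or CTTTGAA, which contain the core, were present in 0 of the 16 windows and in 7.48% of all windows. A match is a description of the letters only.

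The genes lie on 8 chromosomes of GRCm38 (mm10), each annotated as protein coding. Tcf7l2 spans chr19:55741810-55933654 (plus strand), Synpo2 chr3:123076519-123236149 (minus), Slc17a6 chr7:51622006-51671119 (plus), Zic1 chr9:91358058-91365810 (minus) and Prkcd chr14:30595354-30626210 (minus). Ramp3 spans chr11:6658521-6677475 (plus), Plekhg1 chr10:3740364-3967303 (plus), Rgs16 chr1:153740349-153745468 (plus), Ntng1 chr3:109780040-110144011 (minus) and Lef1 chr3:131110471-131224356 (plus). Apart from Zic4, the genes that overlap them held at most 10 reads in a library.

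The second comparison asked how mice given betaine besides the high-methionine diet differed from those given the diet, with Bet+HMD set against HMD in the later table. Zic1, Prkcd and Ramp3 fell, and no gene of the 10 rose. Of all 13672 genes tested, 48.3% passed limma at an adjusted P under 0.05, and 25.5% passed with a lower level, so 3 of 9 genes tested is near that background. Zic1 and Ramp3 also passed a difference of at least 1 on the log2(FPKM + 1) scale, as did 8.93% of all genes. Levels of 5 genes were lower in every Bet+HMD than in every HMD sample, against 31.8% of all genes. Synpo2, among the 5, had a mean of 0.811 FPKM in Bet+HMD and passed the filter through its HMD values. The count of 5 is therefore not independent of direction. The Bet+HMD libraries occur only in the later table, so betaine and the library set cannot be told apart.

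Zic1 was at 21.0, 12.9 and 15.2 FPKM in HMD and at 6.86, 7.69 and 7.33 in Bet+HMD. It fell by 1.04 on the log2(FPKM + 1) scale (SE 0.16, adjusted P = 0.00188), and the Bet+HMD samples lay within 1 FPKM of each other. Without HMD replicate 1 it differed by -0.86 (adjusted P = 0.00214), and its adjusted P ran from 0.000233 to 0.0128 over 14 alternatives, all of them called.

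Prkcd was at 20.5, 7.02 and 11.1 FPKM in HMD and at 5.53, 5.46 and 5.61 in Bet+HMD. The groups did not overlap, and it fell by 0.97 (SE 0.31, adjusted P = 0.0379). Ramp3 was at 13.3, 3.74 and 4.89 FPKM in HMD and at 2.54, 1.72 and 2.75 in Bet+HMD. Again no samples overlapped, and it fell by 1.16 (SE 0.39, adjusted P = 0.0417). Both calls were close to the threshold. Without HMD replicate 1 the differences were -0.59 for Prkcd (adjusted P = 0.0383) and -0.68 for Ramp3 (adjusted P = 0.0272). Leaving out HMD replicate 3 or any Bet+HMD replicate ended both calls, with adjusted P of 0.0707 to 0.0940 for Prkcd and 0.0513 to 0.123 for Ramp3. Over all alternatives the adjusted P ran from 0.00503 to 0.0941 for Prkcd and from 0.0172 to 0.123 for Ramp3.

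Tcf7l2 was at 10.8, 2.10 and 1.89 FPKM in HMD and at 1.20, 1.04 and 1.17 in Bet+HMD. Its groups did not overlap, but the difference of -1.15 (SE 0.50) had an adjusted P of 0.0953. Without HMD replicate 1 the difference was smaller, at -0.49, and was called (adjusted P = 0.0218), while over the alternatives the adjusted P ran from 0.0218 to 0.196. Synpo2 was at 3.84, 1.32 and 1.38 FPKM in HMD and at 0.846, 0.714 and 0.874 in Bet+HMD. No samples overlapped, and the difference was -0.72 (SE 0.28, adjusted P = 0.0677). It was -0.38 (adjusted P = 0.0668) without HMD replicate 1, and 4 of 13 alternatives called it, with adjusted P from 0.00902 to 0.157.

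The remaining genes overlapped between HMD and Bet+HMD. Slc17a6 was at 27.1, 7.48 and 10.3 FPKM in HMD and at 8.92, 8.91 and 8.38 in Bet+HMD, a difference of -0.51 (SE 0.39, adjusted P = 0.316). Plekhg1 was at 10.3, 3.44 and 4.81 FPKM in HMD and at 3.95, 3.93 and 4.07 in Bet+HMD, a difference of -0.41 (SE 0.31, adjusted P = 0.3). In both genes only HMD replicate 1 lay well away from the Bet+HMD samples. Ntng1 was at 10.1, 5.04 and 5.58 FPKM in HMD and at 5.59, 4.88 and 5.58 in Bet+HMD (difference -0.27, SE 0.22, adjusted P = 0.351). Rgs16 was at 4.36, 1.37 and 2.63 FPKM in HMD and at 1.77, 2.03 and 2.77 in Bet+HMD (difference -0.18, SE 0.28, adjusted P = 0.629). Lef1, under the filter, was at 1.13, 0.475 and 0.977 FPKM in HMD and at 0.989, 0.868 and 0.732 in Bet+HMD. Without HMD replicate 1 the difference was -0.005 for Slc17a6 and -0.03 for Plekhg1, and it turned to 0.01 for Ntng1 and 0.11 for Rgs16.

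**Figure D3:**
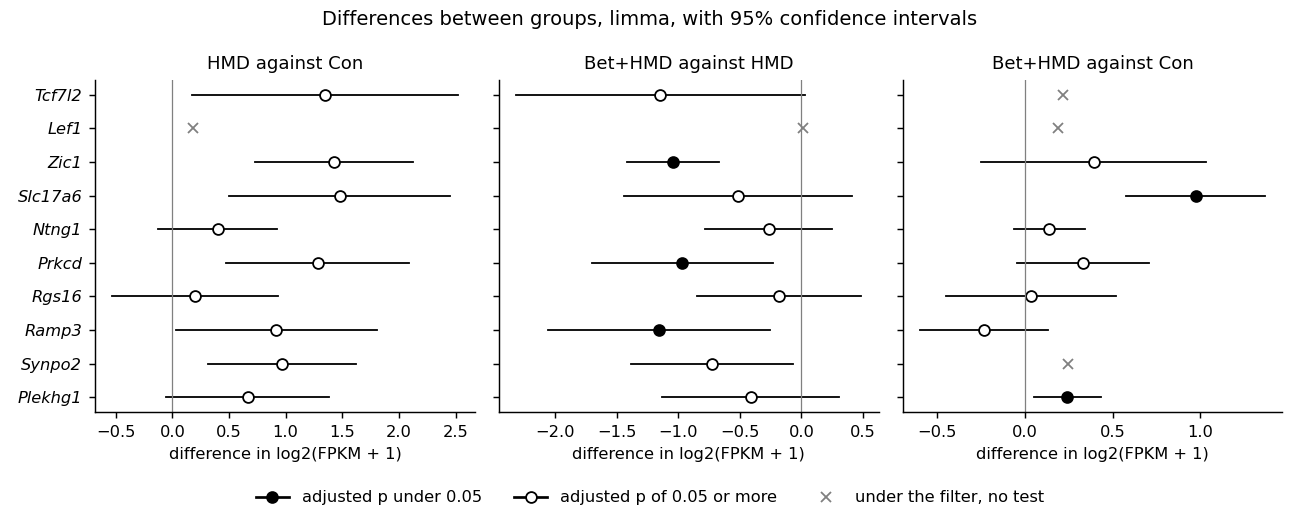
Difference in log2(FPKM + 1) (horizontal axis) for each gene in the 3 comparisons, with limma's 95% confidence interval, filled points for an adjusted P under 0.05 and crosses for genes under the filter. Filled points are absent for HMD against Con, are Zic1, Prkcd and Ramp3 for Bet+HMD against HMD, and are Slc17a6 and Plekhg1 for Bet+HMD against Con.

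The median difference of the 9 genes tested was -0.72 with all samples and -0.38 without HMD replicate 1, beside -0.03 and -0.02 over all genes tested. Both medians are the values of Synpo2, which passed the filter through its HMD values, so they are not independent of direction. With no filter the median of all 10 genes was -0.62, beside 0.04 over all genes. The mean of Bet+HMD was 0.518-fold that of HMD replicates 2 and 3 for Zic1, 0.542-fold for Ramp3 and 0.57-fold for Tcf7l2. It was 0.986-fold for Slc17a6, 1.01-fold for Ntng1 and 1.10-fold for Rgs16.

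**Figure D4:**
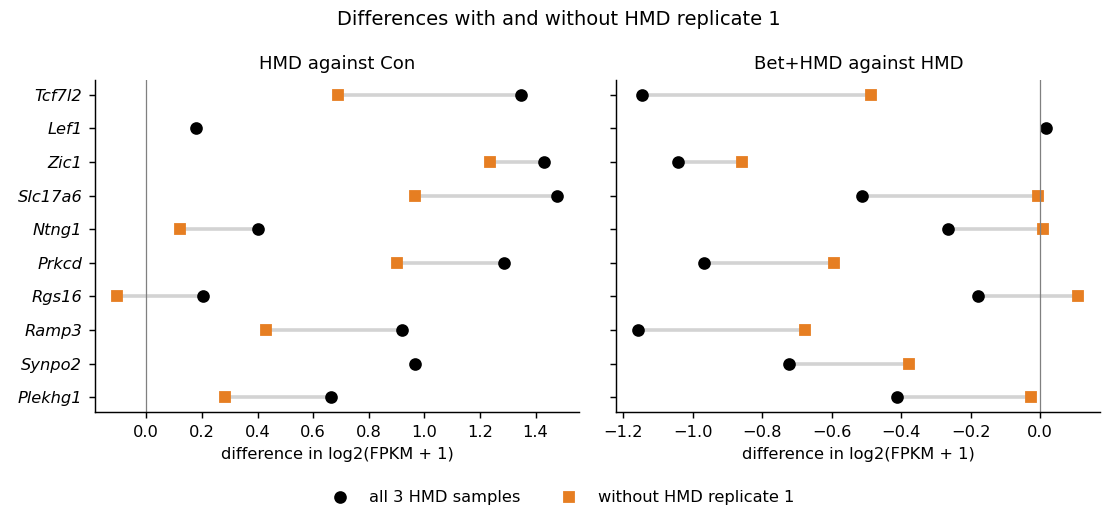
Difference in log2(FPKM + 1) (horizontal axis) for each gene with all 3 HMD samples (circles) and without HMD replicate 1 (squares), for HMD against Con and Bet+HMD against HMD. The squares lie nearer 0 than the circles for all genes with both values, and Zic1 moves least, from 1.43 to 1.24 and from -1.04 to -0.86, among the genes with a circle beyond 1 in either direction. Lef1 in both panels and Synpo2 on the left have no square because they were under the filter.

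The third comparison set Bet+HMD against Con in the later table, and it shares its samples with the comparisons above. Slc17a6 rose, and Plekhg1 rose slightly. Called genes made up 39.7% of the 13643 genes tested, and those with a higher level in Bet+HMD made up 19.4%. In 26.1% every Bet+HMD sample lay above every Con sample. No gene of the 10 was called with a difference of at least 1, which 8.74% of all genes were. Lef1, Synpo2 and Tcf7l2 were under the filter.

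Slc17a6 was at 2.99, 5.38 and 3.78 FPKM in Con, so all Bet+HMD samples were higher, at 2.16-fold the Con mean. The difference was 0.97 (SE 0.17, adjusted P = 0.0046). It was called in 13 of 14 alternatives and lost its call with all 3 groups in one fit (adjusted P = 0.0648, range 0.00107 to 0.0648). Plekhg1 was at 3.06, 3.16 and 3.43 FPKM in Con, again below every Bet+HMD sample, with a difference of 0.24 (SE 0.08, adjusted P = 0.0488). This call was close to the threshold and held in 4 of 13 alternatives (adjusted P 0.0091 to 0.514). Leaving out any of Con replicates 1 and 2 or the 3 Bet+HMD replicates ended it, with differences of 0.22 to 0.25 and adjusted P of 0.0697 to 0.158.

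No call was made for the other 5 genes tested. Zic1 was at 2.98, 7.71 and 6.23 FPKM in Con, and its difference was 0.39 with a 95% interval from -0.25 to 1.04. Prkcd was at 3.27, 3.94 and 5.62 FPKM in Con, with a difference of 0.33 and an interval from -0.04 to 0.71. These intervals do not show that Bet+HMD and Con were alike. Ramp3, the only gene of the 7 with a lower mean in Bet+HMD than in Con, was at 2.60, 3.44 and 2.67 FPKM in Con (difference -0.23, interval -0.60 to 0.13). Ntng1 was at 4.70, 5.01 and 4.57 FPKM in Con (difference 0.14) and Rgs16 at 1.39, 2.16 and 2.90 (difference 0.03). Of the genes under the filter, Tcf7l2 at 1.01, 1.01 and 0.535 FPKM and Synpo2 at 0.534, 0.526 and 0.525 in Con were below every Bet+HMD sample, and Lef1 at 0.635, 0.920 and 0.379 overlapped them.

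Markers of neighbouring regions and other cell types were measured beside these results. A further list of 14 thalamus markers, led in level by Calb2 and Adarb1, held none of the 10 genes. This list too was chosen with earlier results of these data known, so its counts describe it and do not test it. Its summed level was 57.7 to 74.8 FPKM in Con and 140, 78.1 and 90.0 in HMD replicates 1 to 3. The Bet+HMD samples, taken from the later table, had 63.5 to 65.0. HMD replicate 1 was again highest. In HMD against Con, 10 of the 14 genes were tested, and none was called. All 10 had a higher mean in HMD and 6 did not overlap, with a median difference of 0.62. Among all genes tested, 49% had a higher mean and 4.71% were higher without overlap. Shox2 and Slitrk6 were under 1 FPKM in Con and passed the filter through their HMD values, so these counts and the median are not independent of direction. Leaving out HMD replicate 1, 8 were tested and 7 of them had a higher mean, beside 49.6% of all genes, with a median of 0.28. Shox2, named after its values were seen, was at 0.0808, 0.0180 and 0.0515 FPKM in Con and at 8.36, 0.449 and 2.79 in HMD.

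In Bet+HMD against HMD, 11 of the 14 further markers were tested. Calb2 (-1.44), Rora (-0.72), Amotl1 (-0.70) and Ptpn3 (-0.58) fell and Cacna1g rose by 0.82, named after their values were seen. Those 4 and 1 of 11 stand beside 25.5% lower and 22.8% higher among all genes. All 5 were still called without HMD replicate 1, at -1.29, -0.44, -0.39, -0.41 and 0.95 in the same order, among 8 tested, with 21.9% lower and 20.6% higher among all genes. Calb2, a calcium-binding protein gene, also had a wide range in Con, from 11.0 to 27.5 FPKM. Against Con, 8 were tested and Cacna1g (0.97) and Plcb4 (0.62) rose, beside 19.4% higher among all genes.

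Medial habenula markers, led by Nwd2 and Lrrc55, summed to 6.94 to 8.98 FPKM in Con, to 34.0, 9.65 and 9.34 in HMD and to 10.3 to 11.9 in Bet+HMD. HMD replicate 1 stood apart in these as well, while HMD replicates 2 and 3 lay just above Con. The genes of this list were split in Bet+HMD. Nwd2, at 4.02 to 4.54 FPKM, and Lrrc55, at 4.32 to 5.11, lay above every Con sample of the later table. Gpr151, at 0.176 to 0.312, lay below every Con sample, and the rest of the list overlapped Con. Striatum markers, led by Ppp1r1b and Penk, summed to 27.7 to 38.0 FPKM in Con, to 41.8, 31.8 and 51.9 in HMD, with replicate 3 highest, and to 34.4 to 36.7 in Bet+HMD. Blood markers, led by Hbb-bs and Hba-a1, summed to 98.0 to 147 FPKM in Con, to 215, 147 and 230 in HMD and to 72.2 to 122 in Bet+HMD. Choroid plexus markers, nearly all of it Ttr, ranged from 764 to 3143 FPKM in Con, from 856 to 2571 in HMD and from 946 to 1221 in Bet+HMD, with wide overlap.

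Hippocampal neuron markers, led by Neurod6 and Mpped1, summed to 251, 299 and 301 FPKM in HMD replicates 1 to 3 of the earlier table, all below the Con range. The 12 markers were split, however, with 4 of them having a higher mean in HMD. In 2 of them every HMD sample lay above Con and in 2 below it, and the median difference was -0.07. Cortex markers, led by Lamp5 and Tbr1, overlapped between Con (32.8 to 42.0 FPKM) and HMD (30.2 to 46.5) and were higher in Bet+HMD, at 60.5 to 61.2 FPKM. Smooth muscle markers, led by Acta2 and Myh11, were at 8.49 to 12.2 FPKM in Con, 9.78 to 10.8 in HMD and 18.4 to 19.9 in Bet+HMD. Endothelial markers, led by Slc2a1 and Ly6c1, summed to 110 to 121 FPKM in Con, 114 to 127 in HMD and 90.1 to 92.4 in Bet+HMD. Of the 8 tested in Bet+HMD against HMD, 1 was called higher and 3 lower, beside 22.8% and 25.5% of all genes. Markers of meninges and fibroblasts, led by Dcn and Aldh1a2, summed to 20.0 to 23.7, 16.9 to 25.1 and 17.4 to 19.1 FPKM in the same order of groups. Each gene of these marker lists had reads in at least 1 library of each group. The part of these differences in the results for the 10 genes was not tested.

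**Figure D5:**
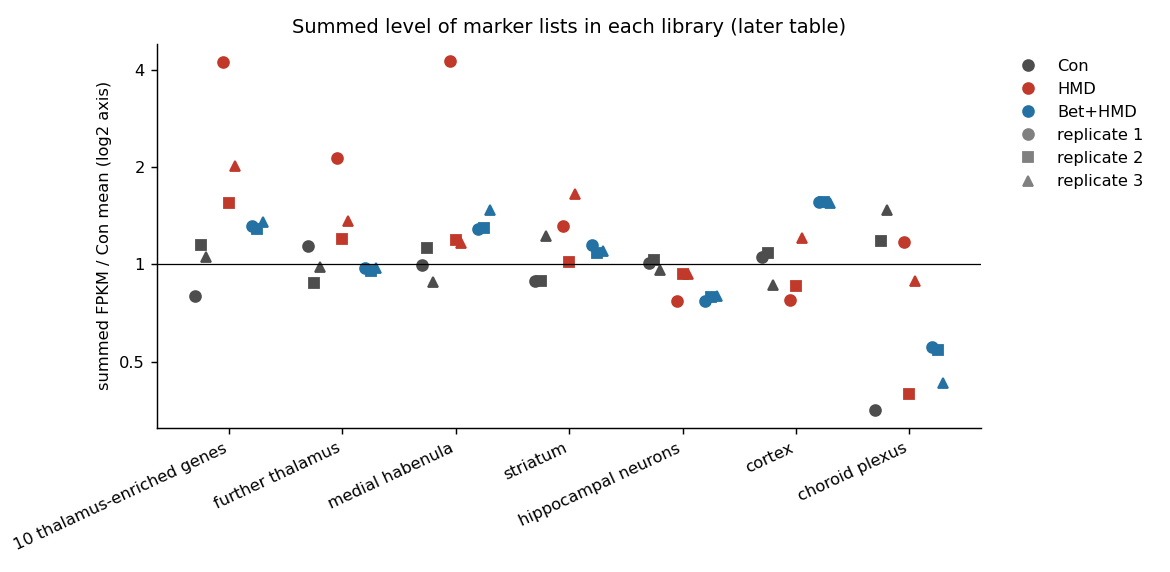
Summed FPKM of 7 marker lists divided by the Con mean (vertical axis, log2 scale) in the 9 libraries of the later table, with colour for the group and symbol for the replicate. The 10 thalamus-enriched genes, the further thalamus list and the medial habenula list are highest in HMD replicate 1, and the cortex list is highest in the 3 Bet+HMD libraries.

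The lists of relatives of the 10 genes differed in direction. Of the 24 genes of the TCF/LEF and Wnt list, 19 were tested in HMD against Con, 6 had a higher mean in HMD and none was called, with a median difference of -0.05. Tcf7l1 and Tcf7, which encode the other members of the TCF/LEF family, differed by -0.07 and 0.22. Axin2, a target and inhibitor of Wnt signalling, differed by -0.10, and Ctnnb1, which encodes β-catenin itself, by -0.05.

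Slc17a7, the transporter gene of hippocampal and cortical neurons, was at 203 to 245 FPKM in Con and 206 to 254 in HMD, a difference of -0.0051, where Slc17a6 differed by 1.48. Of the 4 other Zic genes, 3 were tested, and all 3 had a higher mean in HMD with and without HMD replicate 1. Zic2 was closest to its relative Zic1, with 4.68 to 5.38 FPKM in Con and 7.36 to 11.7 in HMD and no overlap (difference 0.82, adjusted P = 0.636, and 0.69 without HMD replicate 1). Ramp2 (0.08), Ntng2 (0.19), Prkcq (-0.18), Rgs4 (-0.04), Synpo (-0.10) and Plekhg3 (-0.09), relatives of the other genes, had small differences. None of the relatives was called in this comparison, with or without HMD replicate 1. Without it the Wnt list had 7 of 19 higher and a median of -0.03, Slc17a7 differed by 0.06 and Prkcq by -0.40.

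Several of these families held calls in Bet+HMD against HMD, but so did 48.3% of all genes tested, so calls are not particular to them. Of the 19 Wnt genes tested against HMD, 2 rose and 4 fell, both under the shares of 22.8% higher and 25.5% lower over all genes. Ctnnb1 fell by 0.57, Bcl9, a coactivator of β-catenin, rose by 0.62, and Axin2 rose by 0.68. Of the 6 receptor activity-modifying proteins and their receptors and ligands, 3 were tested, and Ramp2 fell by 1.00 (adjusted P = 0.000842). Of 10 small RGS genes, 6 were tested and 3 fell, among them Rgs2, by 0.71. Of 7 genes for synaptopodins and Plekhg proteins, 3 were tested and Plekhg3 rose by 0.68. In the protein kinase C list 1 of 8 tested fell, in the netrin-G list 1 of 4 rose, in the vesicular transporter list Slc17a7, the only gene tested, fell by 0.42, and in the Zic list none of 4 was called. The 7 named genes were also called without HMD replicate 1, with Ctnnb1 at -0.54, Bcl9 at 0.63, Axin2 at 0.74, Ramp2 at -0.98, Rgs2 at -0.73, Plekhg3 at 0.72 and Slc17a7 at -0.48, while none of 4 netrin-G genes was called.

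Against Con, the same list of Wnt genes had 2 of 18 higher and 3 lower in Bet+HMD, where 19.4% and 20.4% of all genes were. Ctnnb1 fell by 0.62 and Bcl9 rose by 0.49. Zic2 was at 7.32 to 8.99 FPKM in Bet+HMD and rose by 0.59 (adjusted P = 0.00441), where Zic1 was not called. Ramp2 fell by 0.90, the only call among 3 tested in its list. Rgs2 was among 3 of 6 small RGS genes that fell, by 0.56, and Plekhg3 among 2 of 4 in its list that rose, by 0.55. Slc17a7 fell by 0.43 (adjusted P = 0.0124), opposite in direction to Slc17a6. None of 8 protein kinase C and 4 netrin-G genes was called.

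The genes outside the list with the pattern most like the mean of the 10 genes were found by the root mean square difference of centred log2(FPKM + 1) over the 9 samples of the later table. Among 13455 genes compared the median was 0.543. Amotl1 (0.142), Rora (0.173) and Plcb4 (0.182) were closest, and all 3 were in the further thalamus list, itself chosen with earlier results known. Spp1 (0.187), Cbln1 (0.188), Apod (0.203), Gpr153 (0.217), A330074K22Rik (0.231), Gpr4 (0.233) and Nxph4 (0.235) followed. Amotl1 was at 3.13 to 3.68 FPKM in Con, at 9.78, 4.43 and 4.71 in HMD and at 3.16 to 3.40 in Bet+HMD. All 10 of these similar genes were highest in HMD replicate 1. The mean they were matched to peaks there as well, so this follows from how they were chosen. Within the list, Synpo2 (0.106) and Plekhg1 (0.132) lay nearest their common mean and Lef1 (0.407) and Tcf7l2 (0.375) farthest from it.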

How the data were processed

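RNA sequencing of hippocampal tissue was analysed in 9 samples, grouped by their titles into Con, HMD and Bet+HMD (3 each). The columns read as Con carry the prefix COL, so that match is inferred. Per the study's methods, ribosomal RNA was depleted and stranded paired-end libraries were sequenced. The submitters' processing notes name HISAT2 2.1.0, featureCounts 1.5.0-p3 and the build mm10, while the study's methods name other versions. The authors deposited FPKM values in 2 tables normalized separately, with each gene's length in bases and position, and no columns of their own comparisons. Columns of per-sample values left unused numbered 0.

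Dividing out gene length and a library size fitted for each column gave whole reads (within 0.1 read) for 100% of values above 0. The fitted size was 0.953 to 1.05 times the reads assigned to genes, so depth is given as the sum of these reads. The floor was 3 reads, which covers counting error only. Values of each pair of groups, as log2(FPKM + 1), were fitted with limma 3.58.1 (R 4.3.3, eBayes with trend) for genes with a mean of at least 1 FPKM. This scale understates the change of low genes. P values were two-sided and Benjamini-Hochberg adjusted over every gene tested, with a threshold of 0.05. The fit was tested on simulated data. The earlier table served for HMD against Con, and the later one for both comparisons of Bet+HMD.

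All 10 genes were named in every comparison. Relatives were named if called (at most 6 per comparison, smallest adjusted P first) or closest in family, markers if among the 2 of highest mean FPKM in a list, and similar genes if among the 10 closest in pattern. The results of 1 marker list and of 1 relative are not reported here. The genes and lists were chosen with earlier results of these data known. The alternatives were a pseudocount of 0.1, no filter, a filter at 5 FPKM, TPM, quantile normalization, limma voom on recovered reads with trimmed-mean factors, a replicate block, all 3 groups in one fit, leaving out each sample and, in HMD against Con, taking the later table. Promoter windows came from RefSeq (GRCm38.p6).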

Additional observations from a re-analysis of the deposited data

How the results depend on the processing

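Precision was limited by 3 samples a group and by HMD replicate 1. The direction and side of the threshold were kept in 129 of 130 alternative values for HMD against Con, 103 of 123 for Bet+HMD against HMD and 84 of 100 for Bet+HMD against Con. Rgs16 changed sign without HMD replicate 1 in HMD against Con (-0.11, with -0.11 to 0.51 over the samples left out) and in Bet+HMD against HMD (0.11, with -0.48 to 0.11), as did Ntng1 in the latter (0.0081, with -0.43 to 0.0081). In Bet+HMD against Con, Rgs16 turned to -0.15 with quantile normalization, -0.15 without Con replicate 1 and -0.09 without Bet+HMD replicate 3, with -0.15 to 0.20 over the samples left out. Over all genes, HMD against Con gave 9 calls with all 3 groups in one fit, and 0 to 2 when a sample was left out, the 2 without Con replicate 2. A filter at 5 FPKM, which tests fewer genes, gave 4166 calls for Bet+HMD against HMD and 3260 for Bet+HMD against Con, and leaving out a sample gave 3302 to 6269 for the latter, the lowest 3 without a Bet+HMD replicate. Of the 10 genes, Bet+HMD against HMD called 1 with no filter, 1 with TPM, 5 with quantile normalization and 1 to 4 when a sample was left out. Bet+HMD against Con called 1 with no filter, 1 with a filter at 5 FPKM, 4 with TPM, 1 with quantile normalization, 0 with all 3 groups in one fit and 1 to 3 when a sample was left out. Why these counts moved was not tested. TPM moved the median of all genes to 0.16 and 0.17 in the Bet+HMD comparisons and the share of calls that were higher to 69.5% and 73.5%, against 47.2% and 48.8% on FPKM. The edgeR test on recovered reads was not run, and limma voom was the only test on those reads.

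The main fits did not pair samples by replicate number, and 3 samples a group cannot show whether equal numbers belong together. Across genes, the deviations of same-numbered samples correlated at -0.06, 0.35 and 0.32 for HMD against Con. The correlations were 0.02, -0.10 and -0.15 for Bet+HMD against HMD and -0.05, -0.09 and -0.18 for Bet+HMD against Con. With a replicate block, HMD against Con called 0 genes (1034 at an unadjusted P under 0.05), Bet+HMD against HMD 5615 with 3 of the 10 genes, and Bet+HMD against Con 3924 with 1 of the 10, Plekhg1 losing its call.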
